A study of Rattus norvegicus with 5 samples.

Results

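Among the non-overlapping 1 kb windows of the 20 rat autosomes, 482 of 2558153 held 40 or more tags of the input library and were taken as the windows with excess input. They cover 0.482 Mb, or 0.0188% of all windows. They were chosen by their input count alone, so their input values are a description and carry no test. The ChIP libraries took no part in the choice.

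The tissue was dorsal striatum of male Sprague-Dawley rats, pooled into 1 library per group, as part of an experiment asking how methamphetamine (METH), a psychostimulant, changes the binding of acetylated histone H4 in the rat striatum. The SS group was pretreated and challenged with saline (4 animals), the SM group pretreated with saline and challenged with METH (3 animals), the MS group pretreated with METH and challenged with saline (3 animals) and the MM group given METH at both stages (4 animals). The METH challenge was 5 mg/kg, and tissue was taken 2 h after the challenge in all 4 groups. The antibody was directed against histone H4 acetylated at lysine 5 (H4K5Ac), and the input library came from 4 pooled samples labelled untreated and had no antibody step. Libraries held 5857375 (MS) to 12621593 (SM) tags for ChIP and 17891766 for input. A tag is 1 aligned read, and RPM below is the number of tags scaled to a library of 1000000 tags. Coordinates are those of rat build rn4. No sequence or gene annotation of that build was used here, so the windows are given by position only, and the tissue label could not be checked against marker genes.

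Input DNA is chromatin that has been fragmented and sequenced without selection. Among other things, its tags follow how many copies of each stretch the animal carries. Where near-identical copies of a stretch are present in the animal but only some of them in the assembly, reads of every copy can be placed at the few that are there. Such places gather tags in input and in ChIP libraries alike, and peak callers use the input to allow for them. H4K5Ac itself is a mark associated with active genes. Whether the windows described here are copied segments was not tested, since it needs the genome sequence.

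The mean autosomal window held 6.83 input tags, so that the threshold of 40 tags was 5.86 times the mean. Most members lay not far above it. Their median was 54.5 input tags, with quartiles of 44 and 78. The count reached 60 in 205 members, 100 in 77 members and 200 in 16 members, and the highest was 556. Below the threshold, 223 windows held 35 to 39 input tags and 592 held 30 to 34, against 123 members with 40 to 44. At the other end, 308028 windows (12.04%) were empty in all 5 libraries.

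Excess-input windows were found on every autosome but were spread unevenly. Chromosome 1 held 72 of them, chromosome 9 held 46, chromosome 13 held 45, chromosome 4 held 44 and chromosome 17 held 40. Together these 5 chromosomes held 247 members, or 51.2%. Per Mb, the density was 0.188 over the autosomes. It was highest on chromosome 12 at 0.428 per Mb, followed by chromosome 17 at 0.411, chromosome 9 at 0.406, chromosome 13 at 0.405 and chromosome 20 at 0.380. It was lowest on chromosome 8 at 0.0775 per Mb, where 10 members were found.

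**Figure D1:**
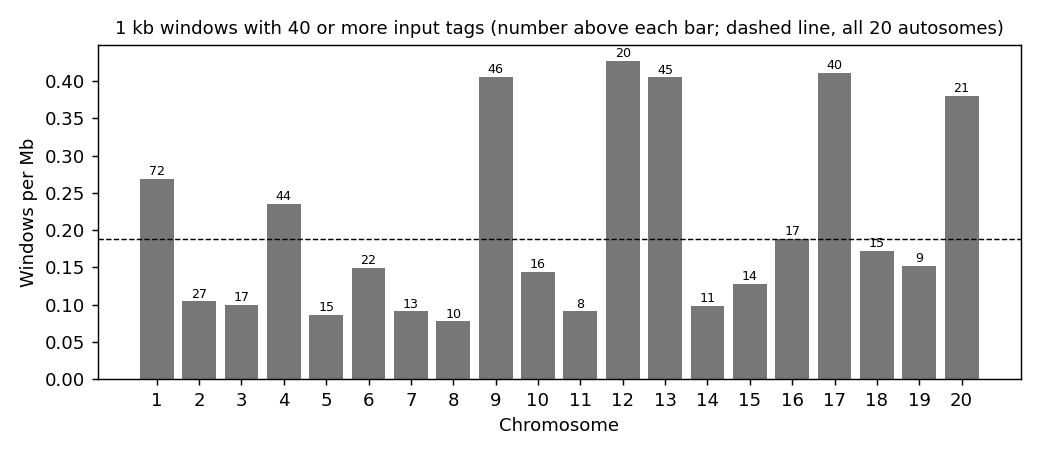
Bars give the number of windows with 40 or more input tags per Mb of each autosome (chromosome on the x axis), and the number above each bar is the count of windows. The dashed line is the density over all autosomes, 0.188 per Mb, and chromosomes 9, 12, 13, 17 and 20 stand above 0.35 per Mb.

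Some of the windows lay near the ends of chromosomes or beside stretches without tags. Of the members, 71 (14.7%) lay in the outer 5 Mb of a chromosome, which hold 7.82% of all windows. Of these, 40 belonged to 3 clusters on chromosomes 9 and 12 described below, and of the other 442 members 31 (7.01%) lay there. In addition, 63 members (13.1%) lay within 10 kb of a stretch of 10 kb or more that was empty in all libraries, compared with 3.65% of the windows that had tags. Of the 315 members outside clusters of 5 or more, 31 (9.84%) did so.

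Excess-input windows lay close to each other. They formed 373 runs of adjacent windows, of which 313 were a single window, 42 had 2 windows and 18 had 3 or more. Another member was directly adjacent for 169 members (35.1%), within 10 kb for 223 (46.3%) and within 100 kb for 248 (51.5%). Of all windows, 0.0348% had a member directly adjacent, 0.261% had one within 10 kb and 2.25% had one within 100 kb. The remaining 234 members had no other member within 100 kb. Joined across gaps of up to 100 kb, 12 clusters had 5 or more members and held 167 members (34.6%). These clusters were singled out after their values were seen.

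The surroundings of members were measured in windows that were not members, whose input the rule keeps below the threshold. Where another member was directly adjacent, as for 35.1% of members, that neighbour was left out. The low input beside members was therefore partly built in, and the excess was not narrow everywhere. In the largest cluster, on chromosome 1 and described below, the median over all windows of its 51 kb was 63 input tags. In windows 1 kb away from a member and not themselves members, input was 1.90 times its genome mean, and it was 1.18 times the mean at 10 kb and 1.02 times at 50 kb. The ChIP libraries fell off in the same manner, from 1.71 (MM) to 2.00 (SS) times their own means at 1 kb to 0.995 (SM) to 1.06 (SS) at 50 kb. Inside a member, the fullest 100 bp held a median of 35.8% of the input tags, against 22.7% in the 22342 windows with 20 to 39 input tags. In 133 members it held 50% or more, and in 84 members it held less than 20%. Whether repeated reads had been removed before the tags were counted is not stated, and their part in the narrow members was not tested.

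The ChIP libraries piled up at these windows as well. Relative to its own genome mean, SS stood at 11.95 times over the members, SM at 8.56, MS at 9.75, MM at 9.66 and input at 10.8 times. Summed over the members, the level was 2200 RPM for SS, 1578 RPM for SM, 1797 RPM for MS, 1780 RPM for MM and 1986 RPM for input. No member was at 0 in any library. At 3 or more times the library's own mean in all 4 ChIP libraries stood 332 members (68.9%), against 0.954% of all windows, and at 6 or more times stood 164 members (34.02%), against 0.0674%. Members were 9.51% of the 1725 windows past the latter limit.

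Set against input, the summed RPM over the members was 1.11 times input for SS (95% interval 1.09 to 1.13), 0.795 times for SM (0.781 to 0.809), 0.904 times for MS (0.885 to 0.924) and 0.896 times for MM (0.880 to 0.913). By these values SS was above input in the sum and the other 3 groups below it, although scaling by the 10 kb windows under the input median brought MS to 1.01 and MM to 1.00 times input. The input in every ratio to input is the count that chose the windows for being high, which lowers such ratios to an extent that was not estimated and that the intervals do not cover. They are therefore a description, and which side of 1 they fall on is not a result. These intervals and those of all ratios below are exact conditional binomial intervals at 95% and cover counting error only. Since a group was a single pooled library, replicate error was not available, and a difference between groups cannot be told apart from one between libraries.

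Single windows varied far more than the sum. The median member stood at 0.957 (SS), 0.687 (SM), 0.784 (MS) and 0.798 (MM) times input. Quartiles ran from 0.548 to 1.51 in SS and from 0.496 to 0.932 in SM. Among the windows with 20 to 39 input tags, the medians were 0.619 (SS), 0.709 (SM), 0.636 (MS) and 0.673 (MM). Above input in all 4 ChIP libraries were 61 members, and below input in all 4 were 209. These counts were not taken for other windows, and the choice by high input favours values below input. In single libraries 47.7% (SS), 20.5% (SM), 32.4% (MS) and 33.2% (MM) of members were above input. Of the windows with 20 to 39 input tags, 23.5%, 27.3%, 27.7% and 26.3% were. The ratio to input ranged over the members from 0.0430 to 3.00 in SS and from 0.0470 to 4.20 in MS. Both low ends were windows with 1 ChIP tag, so counting error is large there.

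**Figure D2:**
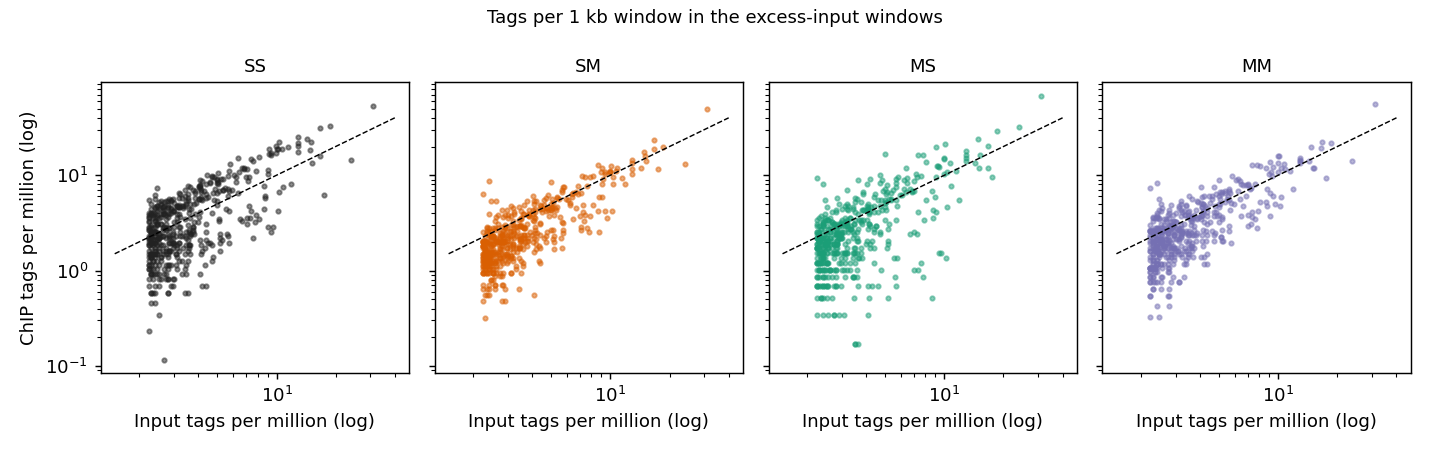
Each point is 1 of the 482 members, with its input RPM on the x axis and the RPM of the named ChIP library on the y axis, both on log scales, and the dashed line marks equal values. In SS 230 members lie above the line, against 99 in SM, 156 in MS and 160 in MM.

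Across the members, log2(tags + 1), from unscaled tag counts, of the ChIP libraries was correlated with that of input with Pearson's r of 0.638 (MS) to 0.793 (SM). Between pairs of ChIP libraries r was 0.767 (SS and SM) to 0.869 (SS and MM), over 482 windows each. These values are a description. All libraries were aligned to the same assembly, adjacent windows are not independent, and depth differed between the libraries.

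The fullest 100 bp of a member was often the same one in input and in the ChIP libraries. SS shared it with input in 300 members (62.2%), SM in 291 (60.4%), MS in 269 (55.8%) and MM in 298 (61.8%). In windows with 20 to 39 input tags the shares ran from 16.0% (MS) to 17.5% (SM). These windows held fewer tags, with means of 8.19 in SS and 22.2 in input, against 39.6 and 73.7 in members. The comparison is not matched for tags, and with few tags the fullest 100 bp is less certain. Among the 133 members in which 100 bp held 50% or more of the input tags, the place was shared in 129 (SS), 126 (SM), 125 (MS) and 129 (MM). The members with a broad excess had lower ratios to input. In the 84 members whose fullest 100 bp held under 20% of the input tags, the ChIP libraries stood at 0.671 (SS), 0.653 (SM), 0.607 (MS) and 0.687 (MM) times input, against 1.27, 0.859, 1.09 and 1.04 times input where it held 50% or more. Of these 84, 24 belonged to a single cluster on chromosome 1 described below. The other 60 stood at 0.802 (SS), 0.769 (SM), 0.834 (MS) and 0.756 (MM) times input.

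Between the groups, RPM over the members was 0.717 times that of SS in SM (0.703 to 0.732), 0.817 times in MS (0.797 to 0.836) and 0.809 times in MM (0.792 to 0.826). MM was 0.991 times MS (0.967 to 1.02) and 1.13 times SM (1.10 to 1.15). Whether the MM to MS interval included 1 rested on a single cluster of 34 members on chromosome 1, without which the ratio was 0.954 (0.931 to 0.979). The first 3 ratios share the SS library. Thus SS was the highest and SM the lowest of the 4, an order that depends on 1 library each.

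The ratio of SM to SS fell with the input count already below the threshold. In windows with 20 to 29 input tags SM was 1.12 times SS (1.11 to 1.12). It was 0.900 times SS at 30 to 34 input tags and 0.786 times at 35 to 39, just outside the rule. Just inside it, at 40 to 44 tags, SM was 0.711 times SS (0.673 to 0.752), and from there the ratio stayed between 0.704 and 0.761 up to the 16 members with 200 or more input tags. Over the same classes, MS to SS went from 1.06 at 20 to 29 input tags to 0.863 at 35 to 39, 0.827 at 40 to 44 and 0.918 at 200 or more. MM to SS went from 1.06 to 0.842, 0.832 and 0.801.

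**Figure D3:**
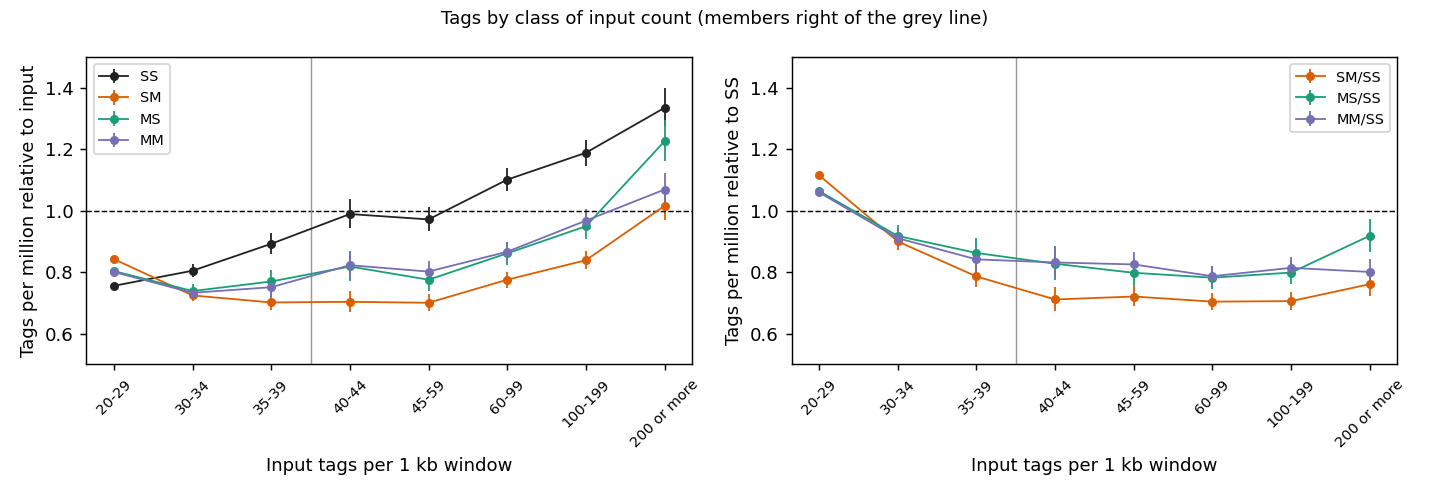
The left panel plots the RPM of each ChIP library relative to input and the right panel those of SM, MS and MM relative to SS, on linear axes, by class of input tags per 1 kb window. Vertical lines are 95% intervals for counting error, the grey line marks the threshold of 40 tags, and SS stands above the other 3 libraries in every class from 30 input tags on.

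Single windows were compared where the pair of libraries held enough tags. Taking windows whose SM and SS tags summed to 40 or more, 333 members could be compared, and 170 of them (51.1%) were at least 1.5-fold lower in SM, against 13.6% of all 13439 such windows. At least 1.5-fold higher in SM were 27 members (8.11%), against 14.0%. The median ratio was 0.664 in members and 1.01 in other windows. Members held more tags than the others, with a median of 71 in the pair against 46. The filter used the tags of the compared pair, so a window could pass through the library in which it was high. This holds for every pair below as well, and these shares are a description of the windows that passed. In MS against SS, 88 of 237 members (37.1%) were at least 1.5-fold lower, against 9.69% of all windows, and 12 (5.06%) were higher, against 21.0%. SS was the deeper library of this pair, so windows high in SS passed the filter more readily. In MM against SS, 89 of 298 members (29.9%) were lower, against 9.98%, and 15 (5.03%) were higher, against 16.0%.

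The pairs without SS differed less. In MM against MS, 26 of 217 members (11.98%) were at least 1.5-fold higher and 15 (6.91%) lower, against 10.9% and 17.4% of all windows. In MM against SM, 63 of 337 members (18.7%) were higher and 27 (8.01%) lower, against 14.2% and 10.6%.

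SM was lower relative to SS in members that stood alone than in the others. In the 234 members with no other within 100 kb, SM was 0.641 times SS (0.622 to 0.660), and in the other 248 it was 0.786 times (0.765 to 0.807). By shape, SM was 0.677 times SS in members with 50% or more of the input tags in 100 bp and 0.974 times (0.922 to 1.03) in those with under 20%. Without the chromosome 1 cluster the latter ratio was 0.959 (0.902 to 1.02). Both intervals include 1, but only with scaling to all tags of a library. Scaling by the 10 kb windows under the input median raised SM to SS over all members from 0.717 to 0.801. That scaling raises every SM to SS ratio alike, and it was not applied to the broad members alone. Whether SM and SS differed in the broad members therefore cannot be said, with 1 library each.

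The 12 clusters did not behave alike. The largest, at chr1:215553001-215604000, had 34 members in 51 kb and held the longest run of adjacent members, 15 windows at chr1:215573001-215588000. Over its members input was 13.5 times its mean, yet SS stood at 0.431 times input, SM at 0.431, MS at 0.184 and MM at 0.549. All 4 ChIP libraries were below input here and MS was the lowest. Input chose these windows, so the side of 1 is not a result. The cluster held 656 tags of SS, 954 of SM, 189 of MS, 896 of MM and 3136 of input. MS was 0.427 times SS (0.361 to 0.502) and MM was 2.98 times MS (2.55 to 3.51), unlike the ratios over all members of 0.817 and 0.991. In the longest run, the lowest, median and highest window held 1, 8 and 15 tags in MS, 11, 26 and 38 in SS, 9, 36 and 53 in SM, 8, 27 and 57 in MM and 46, 99 and 183 in input. In the 84 windows with tags within 50 kb on either side, input was 0.974 times its mean.

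In 4 clusters the RPM of SS was more than 1.5 times that of input. SS was the highest ChIP library in RPM in 6 of the 12 clusters, these 4 and those at chr9:1065001-1239000 and chr12:4361001-4416000. They lay at chr13:19120001-19224000 (18 members), chr13:30374001-30493000 (20 members), chr17:49329001-49682000 (15 members) and chr18:38707001-38794000 (8 members). SS stood at 1.73, 1.70, 1.56 and 1.79 times input in these clusters. SM stood at 0.980, 0.968, 0.867 and 1.03 times input, and MS and MM between 0.995 and 1.28 times. In each of the 4, SM was 0.556 to 0.576 times SS. The windows with tags within 50 kb of the chromosome 17 and 18 clusters, none of them members, also held more SS tags. Beside the chromosome 17 cluster these stood at 2.10 times the mean in SS, 1.21 in SM and 1.35 in input, and beside the chromosome 18 cluster at 2.48, 1.49 and 1.56. Beside the chromosome 13 clusters SS stood at 1.10 and 0.635 times its mean and SM at 0.817 and 0.501.

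The opposite order was found at chr4:5742001-5750000, where 5 members held 103 tags of SS, 280 of SM, 109 of MS, 160 of MM and 668 of input. SM was there 1.87 times SS (1.49 to 2.37). At chr17:53435001-53574000, with 7 members, SM was 1.43 times SS (1.07 to 1.93). In both clusters all 4 ChIP libraries lay below input, with SS lowest. Both clusters of chromosome 9 were also below input throughout. As above, the side of 1 is not a result in any of these clusters. At chr9:718001-854000 the 21 members stood at 0.515 (MS) to 0.610 (MM) times input, and at chr9:1065001-1239000 the 13 members stood at 0.421 (MS) to 0.703 (SS).

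The MS library stood out at chr20:25103001-25109000, a run of 6 members. Its tags were 27.2 times the MS mean there, compared with 15.3 times in SS, 15.2 in SM, 15.7 in MM and 22.5 in input. MS was 1.77 times SS (1.52 to 2.07) and MM was 0.579 times MS. MS was also the highest library at chr4:75829001-75909000, where the 14 members stood at 1.56 times input in MS, 1.23 in SS, 1.19 in SM and 1.26 in MM. The 6 members at chr12:4361001-4416000 ran from 0.776 (MM) to 1.19 (SS) times input.

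**Figure D4:**
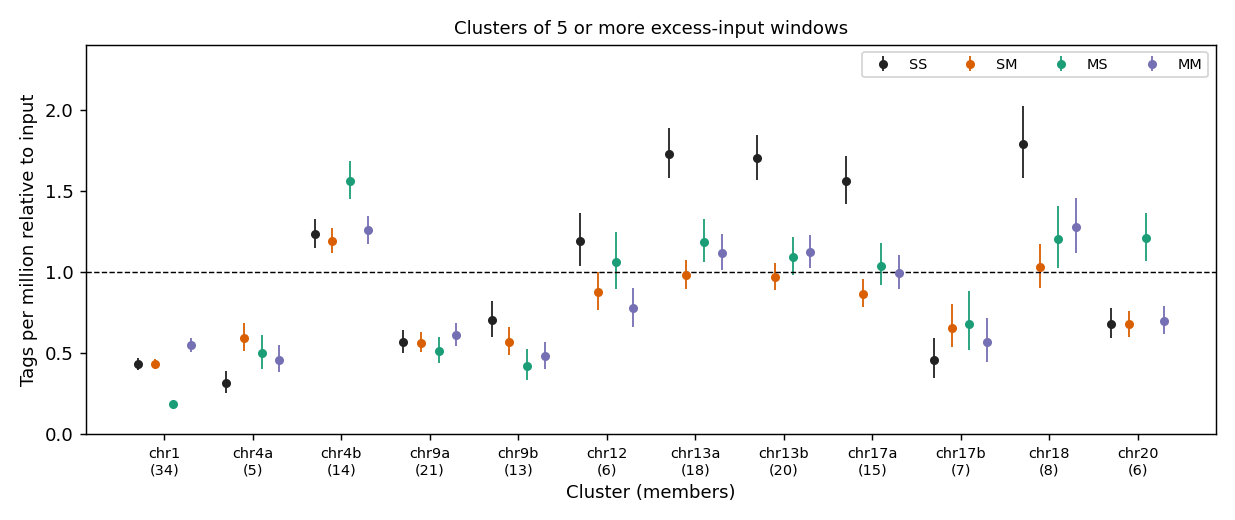
Points give the RPM of each ChIP library relative to input (linear y axis) over the members of each cluster of 5 or more, with the number of members in parentheses on the x axis, and vertical lines are 95% intervals for counting error. Letters a and b tell apart clusters of 1 chromosome in order of position. SS stands above 1.5 in chr13a, chr13b, chr17a and chr18, and all 4 libraries lie under 1 in chr1, chr4a, chr9a, chr9b and chr17b. Input chose the members, so the side of 1 is not a result.

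The member with most input was chr4:75901001-75902000, in the second chromosome 4 cluster. It held 463 SS tags, 618 SM tags, 401 MS tags, 523 MM tags and 556 input tags. These were 53.4, 49.0, 68.5, 56.2 and 31.1 RPM, so that all ChIP libraries lay above input and MS furthest. Next came chr20:25105001-25106000, with 126 SS, 164 SM, 186 MS, 130 MM and 427 input tags. In this window only MS was above input, at 1.33 times (1.11 to 1.58). The third, chr6:93668001-93669000, held 286, 250, 172, 204 and 333 tags in the same order, and SS was highest relative to input there, at 1.77 times (1.51 to 2.08). These windows were picked for their input, so their ratios to input are a description.

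The members with the highest ChIP tags relative to input lay near the threshold. At chr7:809001-810000 there were 54 SS, 110 SM, 47 MS, 77 MM and 43 input tags, and the mean of the 4 libraries was 3.25 times input in RPM. The adjacent window, chr7:810001-811000, held 64, 68, 32, 52 and 44 tags, with a mean of 2.42 times input. At chr1:185709001-185710000 the counts were 48, 81, 55, 69 and 40, with a mean of 3.22 times. These 3 windows were picked for this ratio, so the values are a description.

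The members with the lowest ratios had few ChIP tags. The window chr1:215600001-215601000, in the chromosome 1 cluster, held 8 SS tags, 7 SM tags, 2 MS tags, 19 MM tags and 73 input tags. The window chr2:105598001-105599000 held 5, 8, 5, 11 and 61 tags, and chr2:145713001-145714000 held 6, 15, 7, 14 and 78. In the last pair of windows, 86.9% and 96.2% of the input tags lay in 100 bp. These windows, too, were picked for the ratio, and their values are a description.

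To see how these windows bear on peak counts, H4K5Ac sites were called in 200 bp windows that passed a Poisson threshold (p at most 1e-05) over their background, for which whichever was higher of the local input and the genome-wide mean was used. The local input is the count that chose the members, so the genome mean alone is given beside it below. Sites were called on chromosomes 1 to 20 and X, so totals, shares and ranks of sites include chromosome X. No window there counts as a member, and the percentages of all windows are of autosomes only. Members overlapped 169 of 4671 SS sites (3.62%, 3.10 to 4.19), 96 of 6965 SM sites (1.38%, 1.12 to 1.68), 79 of 3246 MS sites (2.43%, 1.93 to 3.02) and 118 of 5445 MM sites (2.17%, 1.80 to 2.59), with Clopper-Pearson intervals. An SS site was held by 172 members (35.7%), an SM site by 96 (19.9%), an MS site by 79 (16.4%) and an MM site by 118 (24.5%), against 0.182%, 0.275%, 0.127% and 0.214% of all windows. In any library a site was held by 192 members, in all 4 by 58 and in 1 library only by 61, of which 44 were in SS only. The same overlaps were not counted over all windows, and the libraries differed in depth. These 4 counts are therefore a description and not a trait of the members. The number of called sites changes with depth. With every library thinned to the depth of MS, 5.54% of the SS sites, 2.97% of the SM sites and 3.17% of the MM sites lay in members, so that SS remained highest and MS, at 2.43%, was lowest. At a Poisson p of 1e-07 the shares were 10.03% (SS), 3.60% (SM), 6.87% (MS) and 5.30% (MM).

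The effect on the number of sites was small. The ratio of SM to SS sites went from 1.49 to 1.53 when the sites in members were left out. For MS the ratio went from 0.695 to 0.703, and for MM from 1.17 to 1.18. These ratios were taken at unequal depth and not at a p of 1e-07, at which 10.03% of SS and 3.60% of SM sites lay in members. With every ChIP library thinned to the depth of MS SM went from most to fewest sites (1784) and MS from fewest to most (3246), and leaving out the sites in members moved SM from 0.716 to 0.736, MS from 1.30 to 1.35 and MM from 1.03 to 1.05 times SS.

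Members took a larger part of the tallest sites. Because the high local input of a member raises the count that a site there must reach, these values are given for both backgrounds. Of the 100 sites with most tags, those in members numbered 81 (SS), 48 (SM), 50 (MS) and 46 (MM) with local input, and 82, 53, 60 and 61 with the genome mean alone. Of all tags in sites, members held 15.3% (SS), 6.25% (SM), 10.2% (MS) and 7.85% (MM) with local input, and 8.46%, 3.89%, 6.28% and 4.90% with the genome mean. A site in a member held a median of 36 tags in SS and 46.5 in SM with local input, and 29 and 24 with the genome mean. Sites elsewhere held 10 and 12 tags with local input, and 8 and 9 with the genome mean. With either background, the members' share of the 100 tallest sites and of the tags in sites was higher than their share of the sites.

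Without input in the background, more members held a site. Against the genome mean alone, 369 members held an SS site (76.6%), 379 an SM site (78.6%), 294 an MS site (61.0%) and 373 an MM site (77.4%), against 0.721%, 1.34%, 0.591% and 1.02% of all windows. The total number of sites rose to between 14775 (MS) and 32962 (SM), so that the share in members fell to 1.90% (SS), 1.08% (SM), 1.85% (MS) and 1.37% (MM). The input library called in the same way had 6504 sites, of which 425 (6.53%) lay in members. That count is a description, since its own tags chose the members.

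The members' own input acted mainly on sites within them. When the input of the members was replaced by its genome mean and the rest kept, SS gained 154 sites, SM 212, MS 154 and MM 180. Of the gained sites, 15, 13, 5 and 10 lay outside members. Since that input was high by the rule, replacing it mainly lowers the background, and only in and near members. Gains there were thus built in, and the counts are a description. The share of sites in members then stood at 6.38% (SS), 4.11% (SM), 6.71% (MS) and 5.12% (MM).

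**Figure D5:**
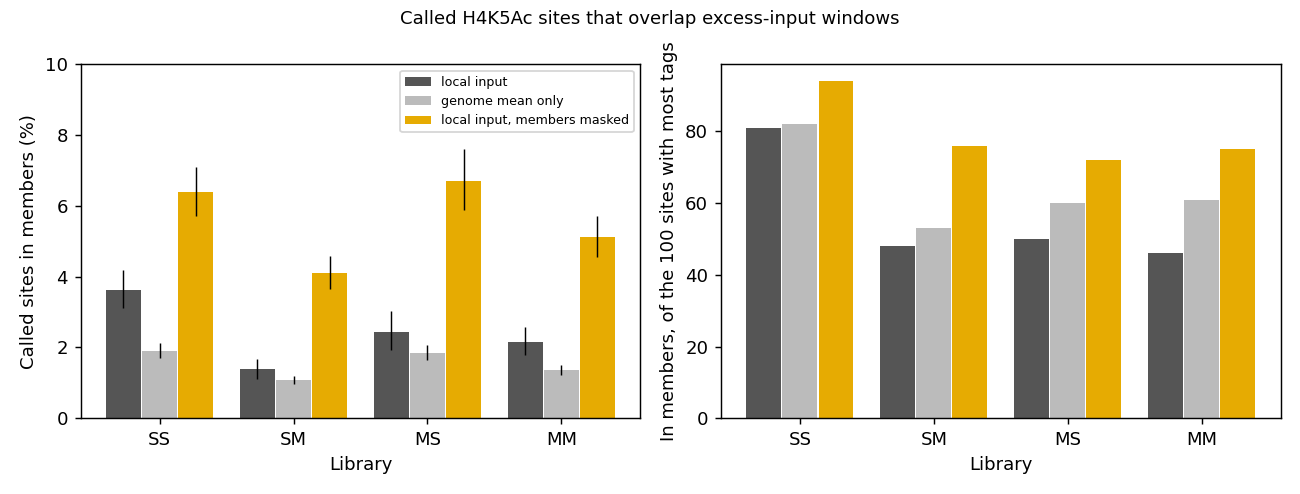
By library (x axis), the left panel shows the percentage of called sites that overlap a member, with Clopper-Pearson 95% intervals, and the right panel how many of the 100 sites with most tags do so, for 3 backgrounds. With local input SS has the highest share, 3.62%, and 81 of its 100 sites with most tags in members, and all bars start at 0.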

How the data were processed

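ChIP-Seq libraries of H4K5Ac from SS, SM, MS and MM (1 pooled library each) and 1 input were used. Libraries were amplified by an 18-cycle PCR, reads were cut to 41 bases and aligned by the authors (Gerald), and the build was rn4 per the submitters' processing notes. Removal of repeated reads and alignment filters: not given in the sources used here. Deposited were raw counts of tags in overlapping 1 kb windows at 100 bp steps. From these, tags in each 100 bp were recovered, which rebuilt each deposited window. RPM (tags scaled to 1000000 per library) refers to chromosomes 1 to 20 and X.

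Members are 1 kb windows with 40 or more input tags. Members and measures were chosen with earlier results of these data known. Named windows are the 3 with most input, the longest run, and the 3 highest and 3 lowest in mean ChIP to input. Sites were 200 bp windows passing a Poisson p of 1e-05 over a background that was the highest of genome mean and input rates in 1, 5 and 10 kb, merged within 200 bp. No p between groups was computed. The caller and ratios were run on simulated data with independent counts and equal excess in ChIP and input. That simulation held no clustered or narrow windows, so it does not test the intervals for those members. Alternatives were a threshold of 60 tags, a grid shifted by 500 bp, another scaling, leaving out windows, a stricter p, overlap of 50%, no input and thinning. Python 3.11.15, NumPy 2.4.6, SciPy 1.17.1, pandas 2.3.3 and matplotlib 3.10.9 were used.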

Additional observations from a re-analysis of the deposited data

Results flagged for a closer look

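METH pretreatment went with fewer tags over the excess-input windows in saline-challenged rats and with more in METH-challenged rats. MS was 0.817 times SS (0.797 to 0.836), and MM was 1.13 times SM (1.10 to 1.15). In windows with 20 to 29 input tags both ratios lay on the other side of 1, with MS at 1.06 times SS (1.06 to 1.07) and MM at 0.9503 times SM (0.945 to 0.956). At 30 to 34 input tags they were 0.918 (0.884 to 0.953) and 1.01 (0.981 to 1.04), and at 35 to 39, just below the threshold, 0.863 (0.817 to 0.911) and 1.07 (1.02 to 1.12), so the pattern was not particular to the members. Over the members the directions were opposite, but the difference between them was not tested, since each group was 1 library. SS and SM, the references of these ratios, were the highest and the lowest library over these windows.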

How the results depend on the processing

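No paired analysis was possible because each group was 1 library. Of 80 alternative values, 30 stayed within the counting error of the reported one (counts within 1.5 times), 48 moved beyond it and 2 changed direction. Those that stayed include the shares of sites at an overlap of 50%, which were identical to the reported ones in every library. They also include MS thinned to the smallest library, which is MS itself. Scaling to tags of 10 kb windows under the input median turned MS from below to above input (1.01) and MM likewise (1.00), both by less than 0.01, and gave SS 1.15 and SM 0.918 times input, SM 0.801, MS 0.879 and MM 0.874 times SS, and MM 1.09 times SM. A threshold of 60 tags left 205 members, at 1.18 (SS), 0.848 (SM), 0.969 (MS) and 0.946 (MM) times input. Without the 10 members with most input tags, SM was 0.767, MS 0.865 and MM 0.876 times input, and SM 0.703 and MS 0.793 times SS. The following choices were made after seeing the data. In members with no other within 100 kb, SS was 1.20, SM 0.772, MS 0.943 and MM 0.933 times input, SM 0.641, MS 0.783 and MM 0.775 times SS, and MM 1.21 times SM. Without the cluster on chromosome 1, SS was 1.17, SM 0.830, MS 0.974 and MM 0.930 times input, and MM 0.954 times MS (0.931 to 0.979), an interval that no longer includes 1. With the input of the members replaced by the genome mean, the share of sites in members was 6.38% (SS), 4.11% (SM), 6.71% (MS) and 5.12% (MM).

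For the share of sites in members, a Poisson p of 1e-07 gave 10.03% (SS), 3.60% (SM), 6.87% (MS) and 5.30% (MM). The genome mean without input gave 1.90%, 1.08%, 1.85% and 1.37%, and a threshold of 60 input tags gave 2.08%, 1.05%, 1.79% and 1.32%. Thinned to the smallest library, SS had 138 of 2490 sites in members (5.54%), SM 53 of 1784 (2.97%) and MM 81 of 2556 (3.17%), beside 79 of 3246 in MS. The share was highest in SS and lowest in SM with local input at every p, overlap and input threshold tried, but thinning put MS lowest, and masking the members put MS highest. Depth limits single windows most in MS, whose median member held 14 tags. Without replicates, no value has an error between animals or precipitations.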

Other observations

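On chromosome X, outside the rule, 58 of 160699 windows held 40 or more input tags, or 0.361 per Mb, in these male rats. They stood at 0.834 (SS, 0.783 to 0.889), 0.699 (SM, 0.659 to 0.742), 0.714 (MS, 0.660 to 0.772) and 0.779 (MM, 0.731 to 0.830) times input in RPM. SS was again the highest and SM the lowest library, as over the autosomal members, but the intervals of SM and MS overlap. The threshold was not rescaled to the mean of chromosome X, and the libraries were not scaled to their tags on that chromosome. As above, the side of 1 on which these ratios fall is not a result.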
